A study of Mus musculus with 6 samples.

Results

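The 9 cytokine genes described here lie outside the type 2 cytokine locus and were followed across the 6 libraries of this series: Il2, Il9 and Il21 of the common gamma chain group, Il10, Il22 and Il24 of the IL-10 family, and Il6, Lif and Osm of the IL-6 family. They were taken as a named list and matched by symbol to the Ensembl identifiers of the count files, where they make up 9 of 37991 entries, and all 9 were matched. The libraries came from group 2 innate lymphoid cells (ILC2), lymphocytes without antigen receptors that respond to epithelial alarm cytokines, sorted from mice homozygous for an Id1 transgene. The transgene is driven by the proximal promoter of lck, was made in FVB/N mice and was crossed onto the C57BL/J background. Per the labels it stops T cell development and enlarges the ILC2 pool. The 3 groups of 2 libraries were ILC2 of the thymus, untreated ILC2 of the mesenteric lymph nodes (fresh MLN), and MLN ILC2 grown over 1 week with 3 added cytokines, IL-33, IL-25 and IL-7, each at 10 ng/ml (cultured MLN). All 3 groups carry the transgene, so no group shows ILC2 of mice without it, and neither the age nor the number of mice behind a library is given in the sources used here.

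The common gamma chain cytokines signal through receptors that share one chain and act mainly through STAT5 or STAT3. They drive growth and survival of lymphocytes and mast cells. IL-10 restrains myeloid cells, whereas IL-22 and IL-24 act mainly on epithelial cells. IL-6, LIF and oncostatin M all signal through gp130 and STAT3. ILC2 are best known for IL-5 and IL-13, and IL-9 and IL-10 have been described as products of activated ILC2.

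RefSeq promoter windows of the GRCm38.p6 build, each reaching from 250 bases before to 50 bases after the annotated start, were at hand for 6 members: Il2, Il6, Il9, Il21, Il22 and Lif. The 250 bases before the start are printed below for 3 genes that were higher in cultured cells (Il6, Il9 and Lif) and for the 1 that was lower (Il2), because these sequences differ in the motifs they hold. Il22, also higher in cultured cells, had a window with no AP-1, NF-kB or NFAT match and is not printed. Each is written 5′ to 3′ on the strand of its gene, and capitals mark matches to the letters searched on both strands: TTCNNNGAA (STAT), AGATAA (the letters of GATA factors), TGA and TCA around any 1 base (AP-1), GGG followed by any 2 bases and TTTCC (NF-kB) and GGAAAA (NFAT, read as TTTTCC on the other strand). The windows are Il6 at chr5:30012864-30013113 on the plus strand, Il9 at chr13:56482258-56482507 on the minus strand, Lif at chr11:4257318-4257567 on the plus strand and Il2 at chr3:37125955-37126204 on the minus strand.
Il6: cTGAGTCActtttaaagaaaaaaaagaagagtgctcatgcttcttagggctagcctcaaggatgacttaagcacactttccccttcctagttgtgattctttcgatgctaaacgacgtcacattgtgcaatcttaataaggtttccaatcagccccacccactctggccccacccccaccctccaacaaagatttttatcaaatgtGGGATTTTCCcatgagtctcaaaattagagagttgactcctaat
Il9: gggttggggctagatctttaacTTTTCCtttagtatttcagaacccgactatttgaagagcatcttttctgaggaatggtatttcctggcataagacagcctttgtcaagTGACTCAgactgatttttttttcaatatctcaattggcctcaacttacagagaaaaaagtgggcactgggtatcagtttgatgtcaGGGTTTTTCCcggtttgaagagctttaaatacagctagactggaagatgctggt
Lif: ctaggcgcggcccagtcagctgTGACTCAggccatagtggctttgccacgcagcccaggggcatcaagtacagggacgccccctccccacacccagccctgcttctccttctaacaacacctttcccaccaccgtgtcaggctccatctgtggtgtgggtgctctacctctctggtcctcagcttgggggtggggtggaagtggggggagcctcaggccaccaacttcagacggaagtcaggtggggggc
Il2: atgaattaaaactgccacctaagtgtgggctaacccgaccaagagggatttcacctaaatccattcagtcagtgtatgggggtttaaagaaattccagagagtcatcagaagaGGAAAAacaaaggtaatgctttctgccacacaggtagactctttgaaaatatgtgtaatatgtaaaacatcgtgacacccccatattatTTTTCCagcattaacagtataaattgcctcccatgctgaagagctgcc

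An AP-1 match stood 249 bases before the start of Il6, 140 bases before that of Il9 and 228 bases before that of Lif, and 7.81% of all 32851 RefSeq promoter windows hold one. Il6 and Il9 also had an NF-kB match, GGGATTTTCC at 44 bases and GGGTTTTTCC at 54 bases before the start, which 1.63% of windows hold. Each of these NF-kB matches contains an NFAT match on the other strand. Il2 held no AP-1 or NF-kB match and had NFAT matches at 137 and 48 bases before its start. The NFAT letters are common, in 23.4% of windows, and Il21, which had no counts, held 2 matches as well. Il22 held a GATA match 229 bases before its start, found in 11.2% of windows, and no member window held the STAT letters, found in 8.30%. A match says only that these letters are present, and the count files do not show which factor bound there.

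Library totals ran from 35280692 to 40578264 counts. Levels are given as counts per 1000000 (CPM) of the library total after trimmed-mean (TMM) scaling, and 3 counts, the limit used for a gene at 0, equal 0.0739 to 0.0905 CPM. The cells carried ILC2 transcripts in all groups, though not at even levels. Gata3, the lineage factor, stood at 660, 611 and 1049 CPM in thymus, fresh MLN and cultured MLN. Il1rl1, the IL-33 receptor, stood at 1450, 1851 and 2315 CPM. Of 10 ILC2 and sort markers, 5 were higher and 5 lower in cultured over fresh MLN. Thy1 stood at 731, 335 and 113 CPM in the 3 groups and Il17rb at 1652, 2906 and 112 CPM, whereas Icos stood at 390, 231 and 1492 CPM. Id1, the gene of the transgene, stood at 424 and 451 CPM in thymus and fresh MLN and at 1.33 CPM in cultured cells. In each comparison, 8 of the 9 members could be tested with edgeR's quasi-likelihood test over 16231 genes, and a gene was called at a Benjamini-Hochberg adjusted p under 0.05. Il21 had too few counts to test. Il9, Il10, Il22 and Il24 passed the low-count filter only through the cultured libraries and Il2 only through the fresh libraries, so the number of members called is not by itself evidence about them. Errors of a level are SDs over 2 libraries and errors of a log2 fold change are standard errors. Each group serves in 2 of the 3 comparisons, so their results are not independent of each other.

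**Figure D1:**
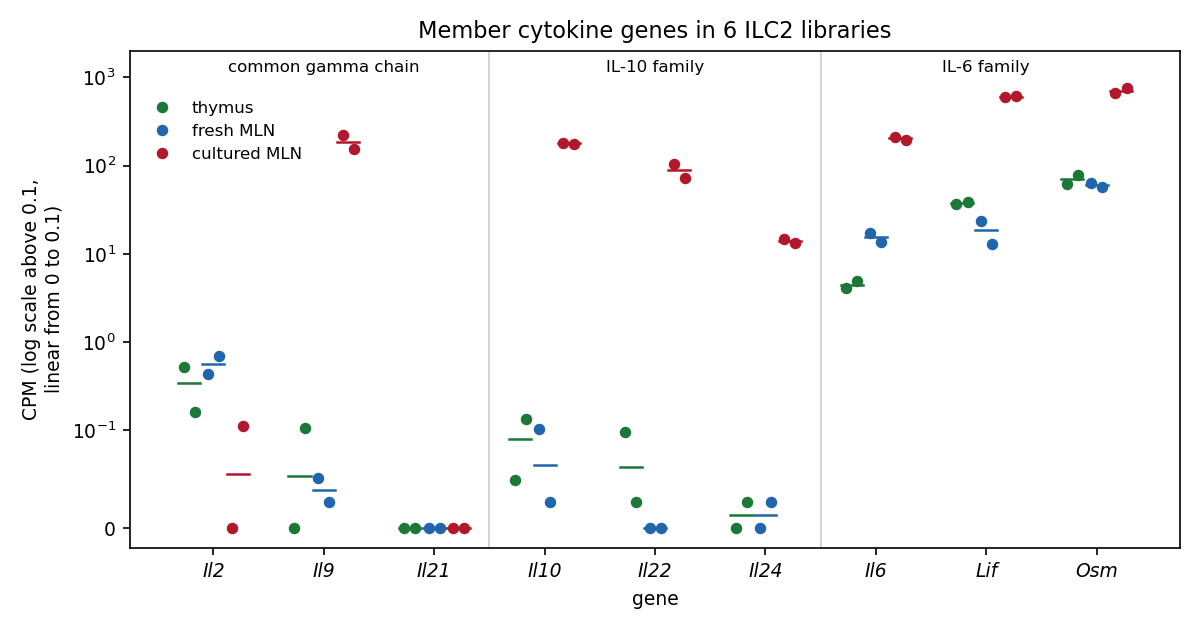
Level of each of the 9 cytokine genes in each library, in CPM on an axis that is logarithmic above 0.1 and linear below it. Points are libraries and bars are means of the 2 libraries of a group (green thymus, blue fresh MLN, red cultured MLN). The cultured points of Il9, Il10, Il22 and Il24 lie between 13.2 and 220.9 CPM, while all their thymus and fresh points lie at or below 0.133 CPM.

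Cultured MLN ILC2 held far more transcript of 7 of the 9 cytokines than fresh MLN ILC2 did. Il9, Il10, Il22 and Il24 went from at most 4 counts per fresh library to between 478 and 7322 counts per cultured library, whereas Il6, Lif and Osm started from clear fresh levels and were 13.2-fold, 32.9-fold and 11.7-fold higher. Il2 went the other way and Il21 was not seen in any library. The count was thus 7 higher and 1 lower of the 8 tested, against 77.6% of all genes tested that were called in this comparison (39.4% higher and 38.1% lower). The libraries of the 2 groups did not overlap for any of the 8, as for 89.2% of all genes. All 7 higher members were over 10-fold higher, which 8.47% of genes tested were. The median log2 fold change of the 8 was 7.39 against -0.01 over all genes, but the filter above let members in through the group where they were high.

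Il9 encodes a cytokine on which mast cells, and ILC2 themselves, grow. Thymus libraries had 0 and 4 counts, fresh MLN libraries 2 and 1, and cultured libraries 7322 and 5538. In CPM the cultured libraries stood at 220.9 and 152.7, a mean of 187 ± 48.3 (SD, n = 2), and no library of the other groups exceeded 0.106. The ratio of counts, with an exact 95% interval that covers counting error only, was 4728 (1618 to 22932) over fresh MLN and 3621 (1414 to 13291) over thymus. The fitted log2 fold change over fresh MLN was 12.10 ± 0.33 with an adjusted p of 1.82e-12. Over thymus it was 11.74 ± 0.32, and its size rested on 1 library: it was 15.77 without thymus replicate 2, which held all 4 thymus counts, and 10.73 without thymus replicate 1. The receptor chain Il9r moved the opposite way. It was highest in fresh MLN at 629 ± 11.9 CPM, 396 ± 6.80 CPM in thymus and 245 ± 9.02 CPM in cultured cells, and its log2 fold change in cultured over fresh MLN was -1.36 ± 0.07 with an adjusted p of 6.32e-10.

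Il2, the T cell growth factor, was near the limit of detection everywhere. The thymus libraries gave 21 and 6 counts, the fresh libraries 17 and 26 and the cultured libraries 0 and 4, with means of 0.339 ± 0.253, 0.564 ± 0.179 and 0.0551 ± 0.0780 CPM. The cultured libraries lay below all others. The fitted fold in cultured cells was 9.31-fold lower than fresh MLN (log2 fold change -3.22 ± 0.85, adjusted p = 0.00368) and 5.70-fold lower than thymus (log2 fold change -2.51 ± 0.92, adjusted p = 0.0255). By counts alone the first ratio was 9.75 with an interval of 3.54 to 37.4. The call against thymus was lost without thymus replicate 1 (-1.43, adjusted p = 0.315) and without cultured replicate 1 (-1.61, adjusted p = 0.17). The log2 fold change against fresh MLN was -7.41 without cultured replicate 2, which leaves 0 counts, and -2.31 without cultured replicate 1. Adad1, which overlaps Il2 on the opposite strand in the GENCODE M21 annotation, had 9 counts over the 6 libraries.

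Chains of the IL-2 receptor were abundant in the same cells. Il2ra, its high-affinity chain, stood at 865 ± 37.5, 765 ± 70.1 and 7831 ± 99.0 CPM in the thymus, fresh and cultured groups, with a log2 fold change of 3.36 ± 0.09 in cultured over fresh cells (adjusted p = 1.35e-12). Il2rb, the signalling chain shared with the IL-15 receptor, rose from 115 ± 22.6 to 842 ± 4.69 CPM, by 2.87 ± 0.11. The common chain Il2rg fell by 0.23 ± 0.07 (adjusted p = 0.00773), a call lost without cultured replicate 2 (adjusted p = 0.0815). Il21r rose from 7.01 ± 0.188 to 39.1 ± 8.12 CPM, although its ligand Il21, made mainly by helper T cells, had 0 counts in every library. That count allows a level of up to 0.0739 to 0.0905 CPM per library.

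Of the 3 IL-10 family members, Il10 was the most even between replicates. It encodes a cytokine that restrains inflammation, and its counts were 2 and 5 for thymus, 4 and 1 for fresh MLN, and 5974 and 6394 for cultured MLN. The cultured libraries stood at 180.3 and 176.3 CPM, a mean of 178 ± 2.81 (SD, n = 2), above every other library. By counts the ratio was 2729 (1169 to 8405) over fresh MLN and 1990 (966 to 4950) over thymus. The fitted log2 fold changes were 11.34 ± 0.18 and 10.91 ± 0.17, with adjusted p-values of 1.84e-14 and 2.37e-14. With so few counts below, the first was 12.54 without fresh MLN replicate 1 and 10.70 without fresh MLN replicate 2, and the second was 11.72 without thymus replicate 2. Il10ra, the ligand-binding chain, was 109 ± 2.02 CPM in fresh and 160 ± 9.59 CPM in cultured MLN, a rise of 0.56 ± 0.07 on the log2 scale. The shared chain Il10rb stood at 35.2 ± 2.97 and 39.6 ± 3.36 CPM and was not called (adjusted p = 0.0921), although it was called without fresh MLN replicate 1 (0.26, adjusted p = 0.0407) or cultured replicate 2 (0.26, adjusted p = 0.0419).

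Il22, known from ILC3 and T helper cells and acting on epithelium, had 4 and 1 counts in thymus, 0 in both fresh libraries, and 3456 and 2628 after culture. The cultured libraries stood at 104.3 and 72.5 CPM, a mean of 88.4 ± 22.5, and did not overlap with the others. Against the limit that 0 counts allows over the fresh group, Il22 was at least 2237-fold higher in cultured cells (adjusted p = 1.64e-11). Against thymus the counting ratio was 1370 (587 to 4222) and the fitted log2 fold change 10.36 ± 0.31, which was 11.52 without thymus replicate 1 and 9.75 without thymus replicate 2. Mice carry a near-identical copy, Iltifb, which had 3 counts over the 6 libraries. How reads that fit both copies were handled is not given in the sources used here, so the level of Il22 is uncertain to that extent. Il17a, another ILC3 product, had 0 counts in all 6 libraries. The 6 ILC3 markers summed to 386 to 420 CPM in thymus, 638 to 652 in fresh MLN and 7.18 to 9.73 in cultured MLN, so they were lowest where Il22 was highest.

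Il24 rose from nearly no counts as well. This cytokine, which signals to skin and other epithelium, had 0 and 1 counts in both untreated groups and 492 and 478 after culture. The cultured level was 14.8 and 13.2 CPM, a mean of 14.0 ± 1.18. With 1 count in each reference group, the counting ratio was 1070 (192 to 42305) over fresh MLN and 1092 (196 to 43194) over thymus. The fitted log2 fold changes were 9.74 ± 0.40 and 9.76 ± 0.40, with adjusted p-values of 9.81e-11 and 1.34e-10. Over fresh MLN the value was 8.87 without replicate 1 and 12.03 without replicate 2 of that group, and over thymus it was 8.86 and 12.03. Il19 and Il20, the related genes beside Il24, did not reach the filter. Il19 had 1, 0 and 17 counts in thymus, fresh and cultured MLN, and Il20 had none. Apart from Il10rb, which is also the second chain of the IL-22 receptor, the chains that bind IL-22 and IL-24 had means of 4.77 CPM or less: Il22ra1 had 0 counts, Il20ra had 191, 51 and 1 counts in the 3 groups, and the decoy receptor Il22ra2 had 3, 1 and 4. Il20rb, the partner of Il20ra, rose from 0.970 ± 0.318 CPM in fresh to 4.77 ± 0.0801 CPM in cultured MLN (2.30 ± 0.24, adjusted p = 1.41e-06).

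The IL-6 family members were the only ones with a clear level before culture. Il6, which drives STAT3 responses in many tissues, was counted 165 and 183 times in the thymus libraries, 674 and 514 times in the fresh and 7056 and 7151 times in the cultured ones. That is 4.07 and 4.87 CPM, 17.3 and 13.7 CPM, and 212.9 and 197.1 CPM, with 3 ranges that did not overlap. Its log2 fold change was 3.73 ± 0.11 in cultured over fresh MLN (adjusted p = 2.51e-12) and 5.52 ± 0.12 over thymus (adjusted p = 3.67e-13), the latter a 46.0-fold difference.

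Lif, a cytokine of stem cell maintenance, implantation and tissue repair, had counts of 1483 and 1445 for thymus, 923 and 490 for fresh MLN, and 19861 and 22136 for cultured MLN. The levels were 36.5 and 38.4 CPM, 23.7 and 13.0 CPM, and 599.3 and 610.3 CPM. The 3 groups did not overlap, and the fresh libraries differed most from each other. Lif was 32.9-fold higher in cultured than in fresh cells (log2 fold change 5.04 ± 0.19, adjusted p = 4.11e-11) and 16.1-fold higher than in thymus (4.01 ± 0.18, adjusted p = 3.09e-10).

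Osm, encoding oncostatin M, a product of activated leukocytes that acts on stroma and endothelium, had a clear level in all 6 libraries. Counts were 2529 and 2918 for thymus, 2498 and 2127 for fresh MLN and 21723 and 27489 for cultured MLN. In CPM these are 62.3 and 77.6, 64.2 and 56.5, and 655.4 and 757.8. Thymus and fresh MLN overlapped, and cultured cells lay above both. The log2 fold change was 3.55 ± 0.11 over fresh MLN (adjusted p = 7.85e-12) and 3.34 ± 0.11 over thymus (adjusted p = 1.92e-11).

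Cultured MLN libraries held more transcript of Il6, Lif and Osm than fresh MLN libraries and less of the gp130 receptor. Il6st, which encodes gp130, was 87.5 ± 4.36 CPM in fresh and 16.1 ± 1.78 CPM in cultured MLN, and its log2 fold change was -2.44 ± 0.09 with an adjusted p of 2.08e-11. Il6ra, the IL-6 binding chain, was already low and had 126, 46 and 4 counts in thymus, fresh and cultured MLN, with a log2 fold change of -3.31 ± 0.62 in cultured over fresh MLN (adjusted p = 2.95e-04). Lifr had 6, 14 and 13 counts and was not tested. Osmr had 1, 1 and 39 counts and was called higher in cultured cells (adjusted p = 1.13e-04 over fresh MLN), at 0.561 ± 0.0253 CPM. Over the list of 14 receptor chains, 12 were tested, of which 6 rose, 5 fell and 1 was not called in cultured over fresh MLN, with a median log2 fold change of 0.36. Between thymus and fresh MLN the list gave 4 higher, 4 lower and 4 not called. Of the higher chains, Il6ra (adjusted p = 0.11) and Il20rb (0.055) lost the call without thymus replicate 1, Il20rb (0.144) without fresh MLN replicate 1 and Il2rb (0.0773) without fresh MLN replicate 2.

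**Figure D2:**
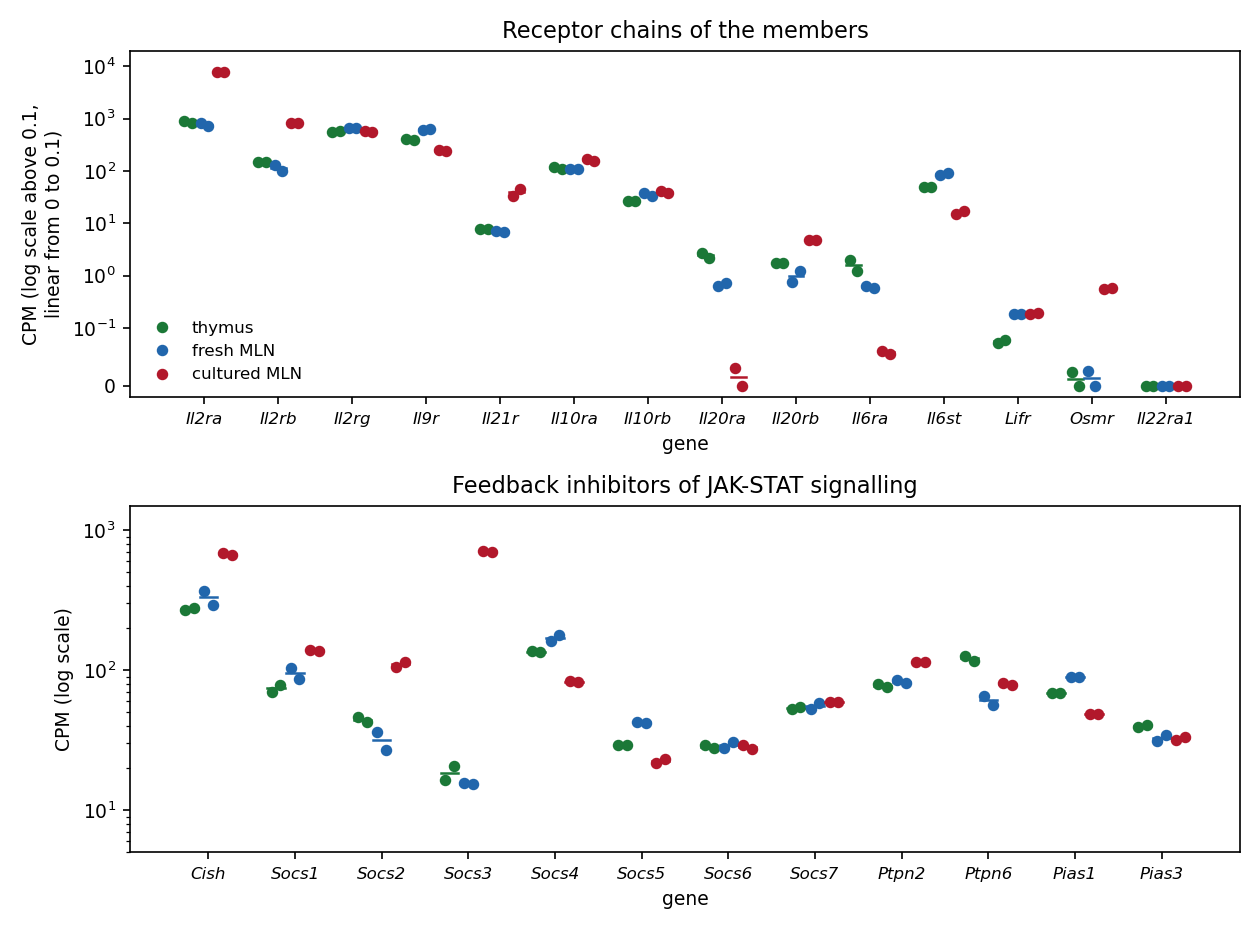
Level in each library, in CPM, of the 14 receptor chains for the cytokines (top, axis linear below 0.1 CPM) and of 12 inhibitors of cytokine signalling (bottom, logarithmic axis). Points are libraries and bars group means (green thymus, blue fresh MLN, red cultured MLN). Il2ra reaches 7831 CPM in cultured cells, Il6st falls to 16.1 CPM, and Socs3 stands at 709 CPM in cultured cells against 15.5 CPM in fresh ones.

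Other ligands of the same families did not all follow. Of 7 further IL-6 family ligands, 5 were tested, and in cultured over fresh MLN 3 rose, 1 fell and 1 was not called. Ebi3, a subunit shared by IL-27 and IL-35, rose from 22.2 ± 1.76 to 73.7 ± 2.11 CPM (1.73 ± 0.10, adjusted p = 3.59e-09) and was lower in thymus, at 6.49 ± 1.27 CPM. Clcf1, which signals through the CNTF receptor complex and gp130, fell from 98.9 ± 10.3 to 21.2 ± 1.36 CPM (-2.22 ± 0.09, adjusted p = 5.35e-11). Among 7 relatives of the gamma chain and IL-10 groups 3 were tested, of which 1 rose and 2 fell. Il4 rose by 0.33 ± 0.07 on the log2 scale, from 39.2 ± 1.15 to 49.4 ± 0.677 CPM, and was not called when libraries were scaled by their totals alone. Il15, which shares Il2rb and Il2rg with IL-2, stood at 8.07 ± 0.471 CPM in thymus and 14.1 ± 1.38 CPM in fresh MLN and had 0 counts in cultured cells, at least 327-fold lower than in fresh MLN (adjusted p = 8.90e-11) and at least 187-fold lower than in thymus.

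A list of 12 inhibitors of cytokine signalling split in the same comparison: 6 rose, 3 fell and 3 were not called, with a median of 0.24. Socs3, the inhibitor that binds gp130, rose from 15.5 ± 0.269 to 709 ± 6.53 CPM (5.52 ± 0.10, adjusted p = 7.17e-14), and Socs2 rose from 31.8 ± 6.63 to 111 ± 6.09 CPM. Cish stood at 274 ± 4.90 CPM in thymus and 678 ± 13.7 CPM in cultured cells. Of the 10 JAK and STAT genes 3 rose, 5 fell and 2 were not called. Jak3, the kinase bound to the common gamma chain, was 202 ± 6.48 CPM in thymus and 650 ± 8.73 CPM in cultured cells (1.69 ± 0.07). These values describe levels of the transcripts and not whether the cells responded to their own cytokines.

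Among 22 transcription factors known to act on these cytokine genes, 13 rose, 8 fell and 1 was not called in cultured over fresh MLN, with a median of 0.61. Irf4, a factor of activated lymphocytes that acts at Il9 and Il10, rose from 0.653 ± 0.0218 to 157 ± 3.90 CPM (7.91 ± 0.11, adjusted p = 8.13e-15). Nfil3 rose from 10.1 ± 0.0430 to 187 ± 0.311 CPM (4.22 ± 0.08) and Fosl2, an AP-1 subunit, from 20.4 ± 5.04 to 411 ± 22.3 CPM (4.34 ± 0.13). Of 12 RNA-binding regulators of cytokine mRNA, which act largely through the 3′ ends of messages such as Il6 and Il10, 4 rose, 6 fell and 2 were not called. Zfp36l2 fell from 1055 ± 86.6 to 147 ± 8.33 CPM (-2.84 ± 0.09) and Zfp36l1 from 184 ± 8.85 to 34.6 ± 2.27 CPM (-2.41 ± 0.07), both members of a family that promotes decay of AU-rich messages. Zfp36 of the same family went the other way, from 55.7 ± 17.6 CPM in fresh to 124 ± 0.222 CPM in cultured MLN. Zc3h12c, related to the nuclease Regnase-1, rose from 4.15 ± 0.605 to 23.2 ± 2.40 CPM (2.48 ± 0.14). Zc3h12a, the gene of Regnase-1, stood at 58.3 ± 8.47 CPM in fresh and 111 ± 1.95 CPM in cultured MLN. None of these values shows which factor acted on which cytokine gene.

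Markers of other cell types that could have shared the sort also changed, and their part in the cytokine results was not tested. In bulk libraries, fewer cells of a type and less RNA per cell cannot be told apart. The 7 mast cell and basophil markers summed to 340 to 383 CPM in fresh and 758 to 1055 CPM in cultured MLN, with 2 of the 4 tested higher and 2 lower. Mcpt8, a basophil protease, accounted for the larger sum, at 0.209 and 727 CPM in fresh and cultured cells, whereas Kit fell from 335 to 179 CPM and Cpa3, a mast cell protease, from 26.1 to 0.10 CPM. Fcer1a, the IgE receptor chain of both cell types, stood at 0.0390 and 0.0276 CPM. Mcpt4 and Tpsb2, which define mast cells, had 0 counts in fresh MLN and at most 0.151 CPM in a cultured library. Cma1, another mast cell protease, went up, from 0.105 CPM (8 counts) in fresh to 0.739 CPM (52 counts) in cultured MLN. The 9 macrophage and monocyte markers summed to 90.5 to 95.8 CPM in fresh MLN and 25.2 to 27.6 CPM in cultured cells, with 3 higher and 6 lower. Cybb fell from 69.5 to 0.0715 CPM, whereas Adgre1, the F4/80 antigen, rose from 0.262 to 3.57 CPM, Cd68 from 3.98 to 16.4 CPM and Itgam from 3.33 to 5.72 CPM. The 9 T cell markers summed to 301 to 329 CPM in fresh and 67.9 to 78.6 CPM in cultured cells, with 1 higher, 6 lower and 2 not called. Lck stood at 198 and 13.8 CPM, Cd3g at 15.3 and 12.3 CPM and Trac at 0.156 and 0.388 CPM. The 6 B cell markers summed to 154 to 198 and 108 to 123 CPM, with 1 of the 3 tested higher, 1 lower and 1 not called. Ighm stood at 161 CPM in fresh and 66.1 CPM in cultured cells and Cd79b at 13.9 and 48.7 CPM. Ms4a1 had 1 count in fresh and 0 in cultured MLN. The 6 dendritic cell markers summed to 25.7 to 26.1 CPM in fresh and 48.2 to 51.4 CPM in cultured MLN, with 1 of the 5 tested higher and 3 lower. Xcr1 rose from 5.96 to 36.1 CPM, whereas Flt3 fell from 0.952 to 0.0728 CPM, Zbtb46 from 4.44 to 0.318 CPM and Itgax from 5.62 to 4.03 CPM. The 7 stromal and endothelial markers summed to 148 to 156 and 168 to 170 CPM, with 3 of the 4 tested higher and 1 lower. The 6 NK cell and ILC1 markers summed to 19.5 to 20.4 CPM in fresh and 0.302 to 0.496 CPM in cultured MLN, with 5 lower and 1 not called.

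Thymus and fresh MLN ILC2, the 2 untreated groups, differed in 2 of the 8 members tested: Il6 was lower and Lif higher in thymus. Across all genes 47.3% were called in this comparison (25.3% higher and 22% lower in thymus), so a count of 2 is not above the general level. No member was called at over 10-fold higher, as 2.32% of genes were. The libraries did not overlap for 3 members, Il6, Lif and Il22, against 72.8% of all genes. Il6 stood at 4.47 ± 0.566 CPM in thymus and 15.5 ± 2.60 CPM in fresh MLN, 3.48-fold lower in thymus with an adjusted p of 1.46e-07. Lif stood at 37.5 ± 1.33 and 18.4 ± 7.57 CPM, 2.04-fold higher in thymus (log2 fold change 1.03 ± 0.18, adjusted p = 4.40e-04). Its size moved with the fresh libraries, to 0.66 without fresh MLN replicate 2 and 1.53 without fresh MLN replicate 1, and it was called in both.

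Osm was 70.0 ± 10.8 CPM in thymus and 60.3 ± 5.45 CPM in fresh MLN, and the log2 fold change of 0.21 ± 0.11 did not pass the test (adjusted p = 0.124). It was called without thymus replicate 1 (0.37, adjusted p = 0.00998). Il2 (adjusted p = 0.358), Il9 (0.887), Il10 (0.684) and Il24 (0.999) were not called either, all at 1 CPM or less in both groups. Il22, with 5 thymus counts against 0, had an adjusted p of 0.168. It was called without cultured replicate 1 (adjusted p = 0.0404) or 2 (0.0377), libraries that belong to neither group.

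Other genes of these pathways also differed between the untreated groups. Il6st was 49.1 ± 0.217 CPM in thymus and 87.5 ± 4.36 CPM in fresh MLN (-0.83 ± 0.08, adjusted p = 2.11e-06) and Prdm1, which represses several cytokine genes, 24.6 ± 1.99 and 65.6 ± 5.62 CPM (-1.41 ± 0.08). Fosl2 was the converse, at 178 ± 10.5 CPM in thymus and 20.4 ± 5.04 CPM in fresh MLN (3.13 ± 0.13, adjusted p = 5.24e-10). Beside the Il6 result, the macrophage and monocyte markers summed to 10.1 to 14.4 CPM in thymus and 90.5 to 95.8 CPM in fresh MLN, with 4 of 9 lower in thymus. The B cell markers summed to 74.0 to 81.6 and 154 to 198 CPM, with 1 of the 3 tested higher, 1 lower and 1 not called in thymus. Cybb alone, a phagocyte oxidase gene that B cells also express, held 69.5 ± 3.85 CPM of the fresh macrophage sum. Adgre1 was at 0.234 and 0.262 CPM in thymus and fresh MLN. All 6 NK cell and ILC1 markers were lower in thymus, with sums of 3.30 to 5.05 CPM against 19.5 to 20.4 CPM in fresh MLN. Of the dendritic cell markers 3 of the 5 tested were lower and 1 higher in thymus, with sums of 19.2 to 21.3 CPM against 25.7 to 26.1 CPM. In some other lists more markers were higher than lower in thymus. Mast cell and basophil markers summed to 816 to 831 CPM in thymus against 340 to 383 CPM, with 2 of the 4 tested higher. T cell markers summed to 372 to 392 against 301 to 329 CPM, with 4 of 9 higher, 1 lower and 4 not called. Of 4 ILC3 markers tested 3 were higher and 1 lower, with sums of 386 to 420 against 638 to 652 CPM. The part of such cells in the Il6 and Lif differences was not tested.

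Cultured MLN against thymus gave 7 members higher and 1 lower of 8 tested, where 72.7% of all genes were called (34.8% higher and 37.8% lower). The libraries did not overlap for any of the 8, as for 86% of genes, and the 7 higher members were all over 10-fold higher, as 6.24% of genes were. The 9 genes together took 0.0111% and 0.0129% of the counts of the thymus libraries, 0.0111% and 0.00875% of the fresh libraries and 0.178% and 0.177% of the cultured libraries. Summed, they stood at 103.6 and 121.3 CPM, 105.8 and 83.9 CPM, and 1988 and 1980 CPM.

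To compare the genes with one another, CPM were divided by exon length in kb, taken from the GENCODE M21 annotation, which is later than the one used for counting. On this scale Osm led in thymus at 30.8 ± 4.75 CPM per kb, above 88.8% of the genes tested, followed by Lif at 8.62 ± 0.305 and Il6 at 1.84 ± 0.233, with ranges that did not overlap. Il2 came next at 0.296 ± 0.221, apart from Il6 but not from Il9. In fresh MLN the order was Osm at 26.6 ± 2.40, Il6 at 6.38 ± 1.07, Lif at 4.22 ± 1.74 and Il2 at 0.493 ± 0.157 CPM per kb, and each of these neighbours in the order was apart from the next. Il6 and Lif thus stood in the opposite order in the 2 untreated groups.

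In cultured cells Il9 joined Osm at the top, at 348.5 ± 90.0 and 311 ± 31.9 CPM per kb, with overlapping ranges, above 99.2% and 99.1% of the genes tested. Lif followed at 139 ± 1.79 and Il10 at 136 ± 2.15, barely apart. Il6 at 84.4 ± 4.59 and Il22 at 79.6 ± 20.3 CPM per kb overlapped, and Il24 was lower at 10.1 ± 0.850, above 66.7% of genes. Il2 lay above 4.68% of genes.

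**Figure D3:**
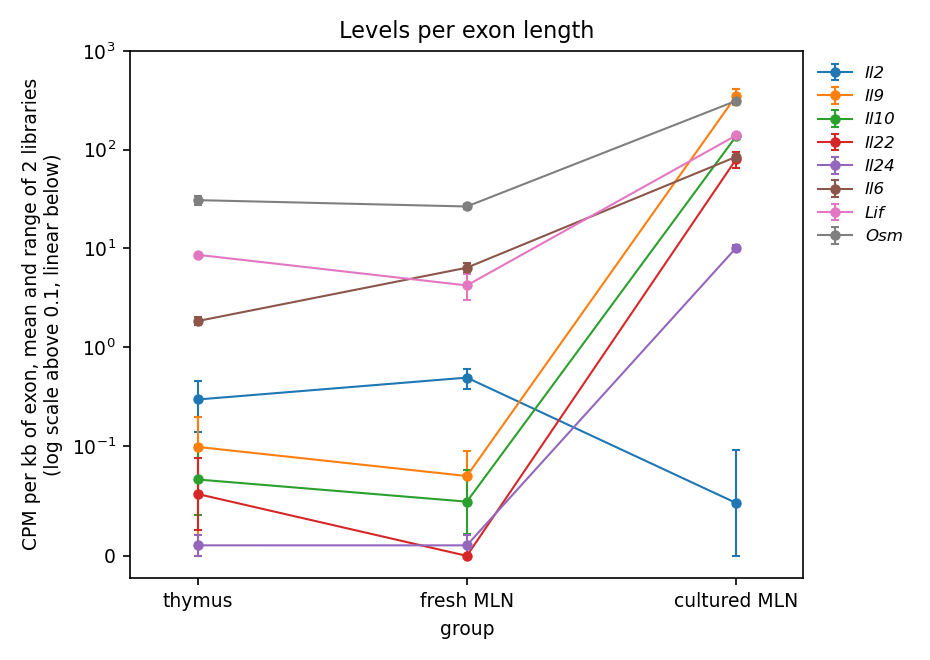
Level of each cytokine gene per kb of exon, in CPM per kb on an axis that is logarithmic above 0.1 and linear below it, in thymus, fresh MLN and cultured MLN, as the mean and the range of the 2 libraries (Il21, at 0 throughout, is not drawn). Osm leads in the untreated groups, at 30.8 and 26.6 CPM per kb, and Il9 and Osm overlap at the top in cultured cells.

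Several of the 9 genes lie close together in the genome: Osm beside Lif on chromosome 11, Il10 beside Il24 on chromosome 1 and Il2 beside Il21 on chromosome 3. Protein-coding genes within 250 kb of a member in GENCODE M21 were therefore read from the same fit. Of 51 such neighbours in the files 35 were tested, and 19 rose and 12 fell in cultured over fresh MLN, with a median log2 fold change of 0.26. Near Lif and Osm, Castor1, an arginine sensor of the mTORC1 pathway, rose from 19.8 ± 0.445 to 335 ± 20.5 CPM (4.08 ± 0.08, adjusted p = 7.01e-14), within the range of the fold changes of Lif and Osm. Castor1 also stood higher in thymus than in fresh MLN (0.44 ± 0.08, adjusted p = 3.76e-04). Sec14l2, a lipid-binding protein gene of the same region, rose from 1.31 ± 0.289 to 11.2 ± 2.65 CPM (3.09 ± 0.23).

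Around Il10 and Il24 the neighbours were mixed. Mapkapk2, a kinase that stabilises cytokine mRNA, rose from 105 ± 0.277 to 400.0 ± 20.2 CPM (1.93 ± 0.07), whereas Ikbke fell from 296 ± 6.58 to 89.1 ± 1.99 CPM (-1.73 ± 0.07). Smad5, near Il9, fell from 155 ± 4.12 to 52.0 ± 4.34 CPM (-1.58 ± 0.07). Ifng, near Il22, was at 0.366 ± 0.0455 CPM in fresh and 0.314 ± 0.102 CPM in cultured MLN and was not called (adjusted p = 0.729). Fcmr near Il10, at 1.77 CPM in cultured cells, and Garem2 near Il6, at 3.42 CPM, were below the level set for naming a neighbour and were chosen after their values were seen: their log2 fold changes were 5.91 ± 0.66 and 5.64 ± 0.47.

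**Figure D4:**
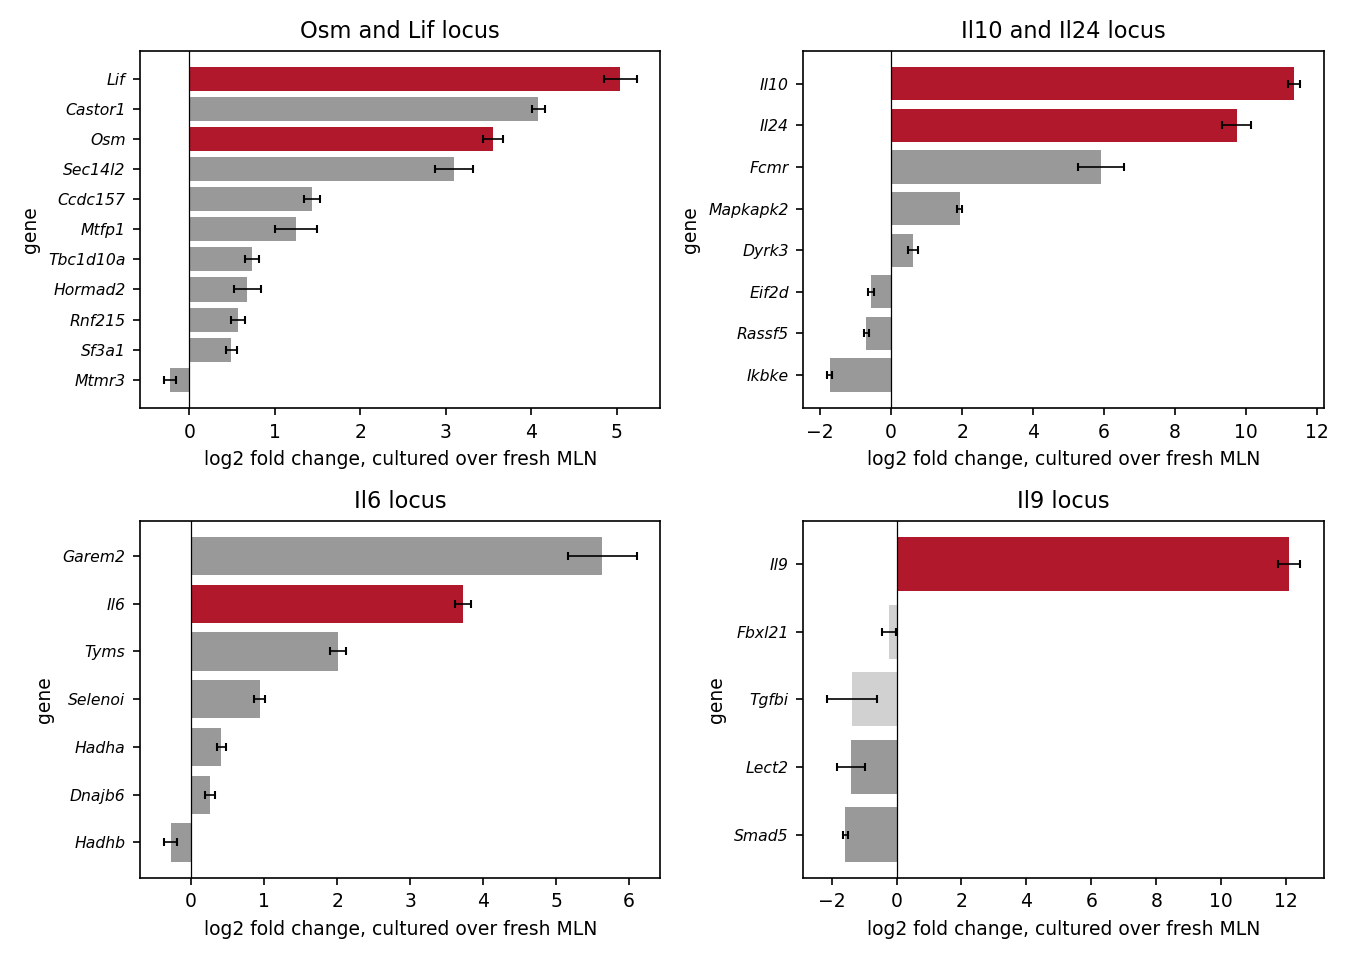
Log2 fold change in cultured over fresh MLN, with its standard error, of the cytokine genes (red) and of the tested protein-coding genes within 250 kb (grey, pale where not called), ordered by size within each locus. Castor1, at 4.08, lies between Lif and Osm, and the tested neighbours of Il9 lie below 0.

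Over all genes with a symbol that reached 10 CPM in some group, 10071 in number, the pattern over the 6 libraries most like that of each member was sought as the Euclidean distance of log2(CPM + 0.5) centred on the gene mean. For Il9 it was Il10 (distance 0.397), and for Il10 it was Pth (0.240), the parathyroid hormone gene, with means of 0.0389, 0.0128 and 146 CPM in thymus, fresh and cultured MLN. Il22 was closest to Palld (0.449) and Asns (0.457), and Il24 to Clip3 (0.0863). Il6 lay nearest to Ahrr (0.400), which stood at 0.0256, 1.57 and 22.0 CPM and is a repressor of the aryl hydrocarbon receptor. Lif lay nearest to Sema6b (0.376), at 0.987, 0.129 and 19.3 CPM, and Osm to Lgmn (0.238), at 22.8, 22.7 and 268 CPM. Il2 had B3gntl1 (0.331) and Thada (0.333) as its nearest genes, on a scale where the added 0.5 CPM damps the changes of a gene as low as Il2. These distances rest on 6 libraries and describe likeness only.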

How the data were processed

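Sorted ILC2 from thymus, fresh MLN and cultured MLN were sequenced as 2 libraries per group with a stranded mRNA kit, per the labels' protocols. The authors deposited whole-number counts per Ensembl gene, 1 file per library, and per the submitters' processing notes HTSeq 0.5.3p9 was used with builds mm9 and NCBIM37. Which aligner, annotation release and strand setting were used is not given in the sources here, so reads of overlapping or near-identical genes could be lost or shared. The 6 files hold 37991 entries, of which 0 name no gene, and 32919 identifiers were given a symbol.

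The counts were analysed with edgeR 4.0.16 in R 4.3.3: TMM factors, filterByExpr, 1 quasi-likelihood fit of all 6 libraries with a mean per group, two-sided tests and Benjamini-Hochberg adjustment over 16231 genes. The fit was tested on simulated data. Nothing says whether the 2 libraries of a group came from separate mice or cultures, so p-values measure the spread between libraries only, which may be technical. With 2 against 2, an exact permutation test cannot reach 0.05. Alternatives were other scalings (RLE, upper-quartile, library totals alone), other low-count filters, DESeq2 1.42.0, only the libraries compared, a replicate block and leaving out each library. A floor of 3 counts was used over a group at 0, and count ratios carry exact 95% intervals.

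The members, gene lists and tests were chosen with earlier results of these data known. All 9 members are named. From each pathway list and comparison up to 3 called genes of the largest change that reached 5 CPM could be named, from each list of other cell types the 2 most abundant genes, and neighbours where called with at least 5 CPM. Genes named beyond this (receptor chains, relatives, Zfp36, Zc3h12a, defining and other markers and Cybb) complete the account of their lists. They were chosen after their values were seen. Gene coordinates of the NCBIM37 build were not used here, and some list genes are not reported here.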

Additional observations from a re-analysis of the deposited data

How the results depend on the processing

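Of 328 recomputed member values, 319 kept their side of the threshold, 7 became called and 2 lost their call. Values on the uncalled side could change direction. Between thymus and fresh MLN the log2 fold change ran from -3.66 to 1.37 for Il9, from -0.38 to 1.64 for Il10 and from -2.29 to 2.27 for Il24. Under no filter on low counts, 4 members were called between thymus and fresh MLN instead of 2, the others being Osm (0.22, adjusted p = 0.0135) and Il22 (4.34, adjusted p = 0.0287). Il22 was also called with DESeq2 (adjusted p = 0.0471), whose counts of genes called were 6849, 11860 and 10978. Leaving out 1 library at a time gave 2 to 3 members called between thymus and fresh MLN, 8 in cultured over fresh MLN and 7 to 8 in cultured MLN over thymus. Whether libraries of the same replicate number were paired is not given in the sources used here. Their deviations from the group means correlated at 0.20 for thymus and fresh MLN. The values were 0.06 for thymus and cultured MLN and 0.03 for fresh and cultured MLN. Such correlations cannot decide whether the libraries were paired. A replicate block gave 3, 8 and 8 members called, the addition being Il22 (adjusted p = 0.0297), and called Il10rb in cultured over fresh MLN (adjusted p = 0.0465), and 8050, 12739 and 11944 genes. Scaling by library totals alone gave a median over all genes of -0.23 in cultured over fresh MLN and -0.32 over thymus, against -0.01 and -0.06 as reported, and moved the share of calls that were higher from 50.8% to 41.8% and from 47.9% to 35.1%; the directions of the neighbour Sf3a1 (-0.031, adjusted p = 0.666) and of Il2rg (-0.23, adjusted p = 0.0084) over thymus reversed, and each member called kept its direction and call under the 3 other scalings. A minimum of 5 CPM in 2 libraries removed Il2 from testing. Few counts in the untreated groups limit the fold sizes of Il9, Il10, Il22 and Il24 and any difference between those groups.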
